A study of Mus musculus with 4 samples.

Results

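The type I interferon antiviral genes are the genes that mouse cells switch on to resist viruses, and they were followed here across 4 macrophage samples. The list held 40 symbols, and a gene was a member when a non-control spot of the array carried exactly that symbol. By this rule 39 of the 40 listed genes were found, with 60 probes among them, out of 30165 genes and 39429 probes on the array. The symbol Ifi27 was not found as such, and its values under an older name are given with the LPS results because they ran the other way. Each gene was read from its brightest probe, chosen by its mean over all 4 arrays.

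The samples were resident peritoneal macrophages of C57BL/6 mice, kept in culture for 2 days in medium with fetal bovine serum. Cells of 2 genotypes, wild type and CD163-deficient, were each left untreated or given LPS, which makes 4 groups. LPS, or lipopolysaccharide, is the outer membrane glycolipid of Gram-negative bacteria, and it was given at 100 ng/mL for 1 day after those 2 days. Whether untreated cells were kept for that further day is not stated here. CD163 is the macrophage scavenger receptor for haemoglobin bound to haptoglobin. Every group was 1 array, so no difference below has a replicate, a standard error or a p-value, and "higher" and "lower" describe these 4 arrays. The sources used here do not give the number, age or sex of the mice, whether mice were pooled, or which part of Cd163 was altered.

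LPS is sensed by Toll-like receptor 4, and its branch through the adaptor TRIF activates the factor IRF3, which turns on interferon beta. Secreted interferon binds the receptor IFNAR1 and IFNAR2 on the same and neighbouring cells, and a complex that includes STAT2 and IRF9 then binds interferon-stimulated response elements in target promoters. Macrophages use this loop to arm themselves with sensors of viral RNA and DNA, enzymes that degrade or modify RNA, and proteins that trap or block virions.

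A short core of that element, GAAA followed by any 2 bases and a second GAAA, was searched on both strands in RefSeq promoter windows that run from 250 bases before to 50 bases after each start site (build GRCm38.p6). Windows were at hand for 29 of the 40 listed genes, and 14 of these 29 genes (48.3%) held the core, against 3.99% of 27025 genes with a window. The sequences below show where it lies in the members that held it and differed most with LPS, with capitals marking the core, which reads as TTTC, any 2 bases and TTTC where it lies on the other strand; overlapping matches share a run of capitals. The first 5 run from 200 bases before the start site to the base before it, and the Ifitm3 stretch covers the first 30 transcribed bases.
Ifit1, chr19:34640689-34640888, plus strand: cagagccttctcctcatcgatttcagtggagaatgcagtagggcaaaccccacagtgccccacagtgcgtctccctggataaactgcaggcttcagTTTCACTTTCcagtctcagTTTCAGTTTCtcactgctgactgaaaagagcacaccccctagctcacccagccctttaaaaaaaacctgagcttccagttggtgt
Ifit3, chr19:34583329-34583528, plus strand: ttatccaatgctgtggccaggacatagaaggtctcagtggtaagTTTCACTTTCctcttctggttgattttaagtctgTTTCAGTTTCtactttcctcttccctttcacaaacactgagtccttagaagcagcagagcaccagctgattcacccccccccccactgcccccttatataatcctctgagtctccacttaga
Isg15, chr4:156200819-156201018, minus strand: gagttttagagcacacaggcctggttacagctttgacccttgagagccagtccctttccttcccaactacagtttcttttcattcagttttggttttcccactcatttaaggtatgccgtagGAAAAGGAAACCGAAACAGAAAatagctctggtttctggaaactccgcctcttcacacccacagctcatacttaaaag
Rsad2, chr12:26456453-26456652, minus strand: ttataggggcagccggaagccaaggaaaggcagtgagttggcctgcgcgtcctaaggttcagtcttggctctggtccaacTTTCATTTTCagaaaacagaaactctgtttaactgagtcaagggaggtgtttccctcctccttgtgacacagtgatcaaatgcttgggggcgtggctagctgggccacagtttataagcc
Oas3, chr5:120777660-120777859, minus strand: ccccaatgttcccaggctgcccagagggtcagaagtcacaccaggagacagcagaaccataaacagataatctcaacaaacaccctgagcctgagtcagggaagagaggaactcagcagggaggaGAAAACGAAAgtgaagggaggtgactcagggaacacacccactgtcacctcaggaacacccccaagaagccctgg
Ifitm3, chr7:141010715-141010744, minus strand: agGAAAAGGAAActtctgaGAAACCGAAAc

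Ifit1, Ifit3, Ifitm3 and Isg15 carried more than 1 match: a pair on the reverse strand in Ifit1 and Ifit3, a pair on the gene's own strand in Ifitm3, and 3 overlapping matches between -78 and -57 in Isg15. Rsad2 carried 1 match on the reverse strand, from -120 to -111, and Oas3 carried 1 on its own strand, from -75 to -66. Strong members without the exact letters in their window also existed, and those with the largest LPS differences, Ifi44 and Ifit2, are shown for contrast over the same 200 bases. Ifit2 had 2 RefSeq windows, of which 1 is printed, and neither held the core.
Ifi44, chr3:151749911-151750110, minus strand: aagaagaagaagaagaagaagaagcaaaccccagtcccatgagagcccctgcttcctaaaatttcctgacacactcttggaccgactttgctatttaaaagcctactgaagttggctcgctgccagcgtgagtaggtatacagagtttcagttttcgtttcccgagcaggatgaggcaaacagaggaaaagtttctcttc
Ifit2, chr19:34550494-34550693, plus strand: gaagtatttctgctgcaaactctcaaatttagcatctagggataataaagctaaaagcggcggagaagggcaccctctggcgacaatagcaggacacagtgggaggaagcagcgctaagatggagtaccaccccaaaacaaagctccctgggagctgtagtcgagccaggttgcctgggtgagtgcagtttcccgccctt

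Carrying the core did not go with a larger LPS difference among the members. The median wild-type LPS difference was 2.65 on the log2 scale for the 14 genes with it, from 1.43 to 6.07, and 3.62 for the 15 without it, from 1.73 to 6.31. These matches describe letters in a fixed window, and no binding was measured.

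**Figure D1:**
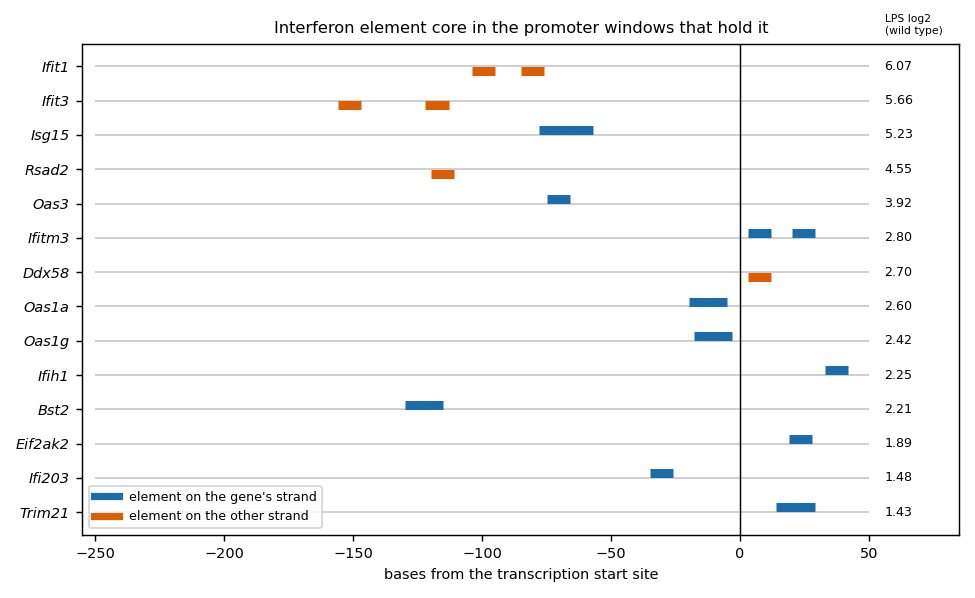
Position of matches to the response element core, in bases from the transcription start site, in the 14 members whose RefSeq window held one, ordered by wild-type LPS difference (log2, at the right). Bars above each line are on the gene's strand and bars below it on the other strand; Ifit1 (6.07) has 2 matches upstream of the start site, while those of Ifitm3 (2.80), Ddx58 (2.70) and Trim21 (1.43) lie after it.

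The level used below is the log2 processed fluorescence intensity of a probe minus the array's 75th percentile, so that 0 is the 75th percentile of that array. The 75th percentile lay at intensities of 910 to 1325 on the 4 arrays, and 81.0% to 87.3% of spots were well above background, with 0 saturated. All 39 members were detected on all 4 arrays. Probes printed in 10 spots had a median standard deviation between spots of 0.11 to 0.13 log2, which gives 0.18 as 1 standard deviation of a difference between spots on a pair of arrays, a yardstick that leaves out all variation between cultures and mice. Macrophage markers were bright, with Adgre1 at 6.61 to 7.18, Csf1r at 7.37 to 7.62, Cd68 at 6.91 to 7.34 and Lyz2 at 7.08 to 7.99. The array's Cd163 probe was dim in every sample, at -5.47 and -5.01 in wild type without and with LPS and -6.00 and -5.48 in CD163-deficient cells. CD163-deficient minus wild type was thus -0.53 without and -0.47 with LPS on the log2 scale. The sources used here do not say whether this probe lies in the altered part of the gene, so it does not check the labels.

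All the genes found by their symbol were higher with LPS on these arrays. The list was chosen with earlier results of these data known. Its counts, set beside the shares of all genes, are therefore a description and not a test. In wild type, 39 of the 39 members found were at least 2-fold higher with LPS, where 6.44% of all compared genes were, and in CD163-deficient cells 39 of 39 were, where 7.24% of all compared genes were. The median member differed by 2.84 in wild type, a 7.18-fold difference, and by 3.08 in CD163-deficient cells, against medians of 0.01 and 0.03 over all compared genes. At 4-fold or more there were 32 members in wild-type cells and 33 in CD163-deficient ones, beside 1.93% and 2.45% of all genes, and 14 members passed 16-fold in each genotype, beside 0.319% and 0.421%. The comparisons in the 2 genotypes use different arrays, whereas each of them shares arrays with the genotype comparisons further on. In samples of many cells, more transcript per cell and more cells that carry it cannot be told apart.

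**Figure D2:**
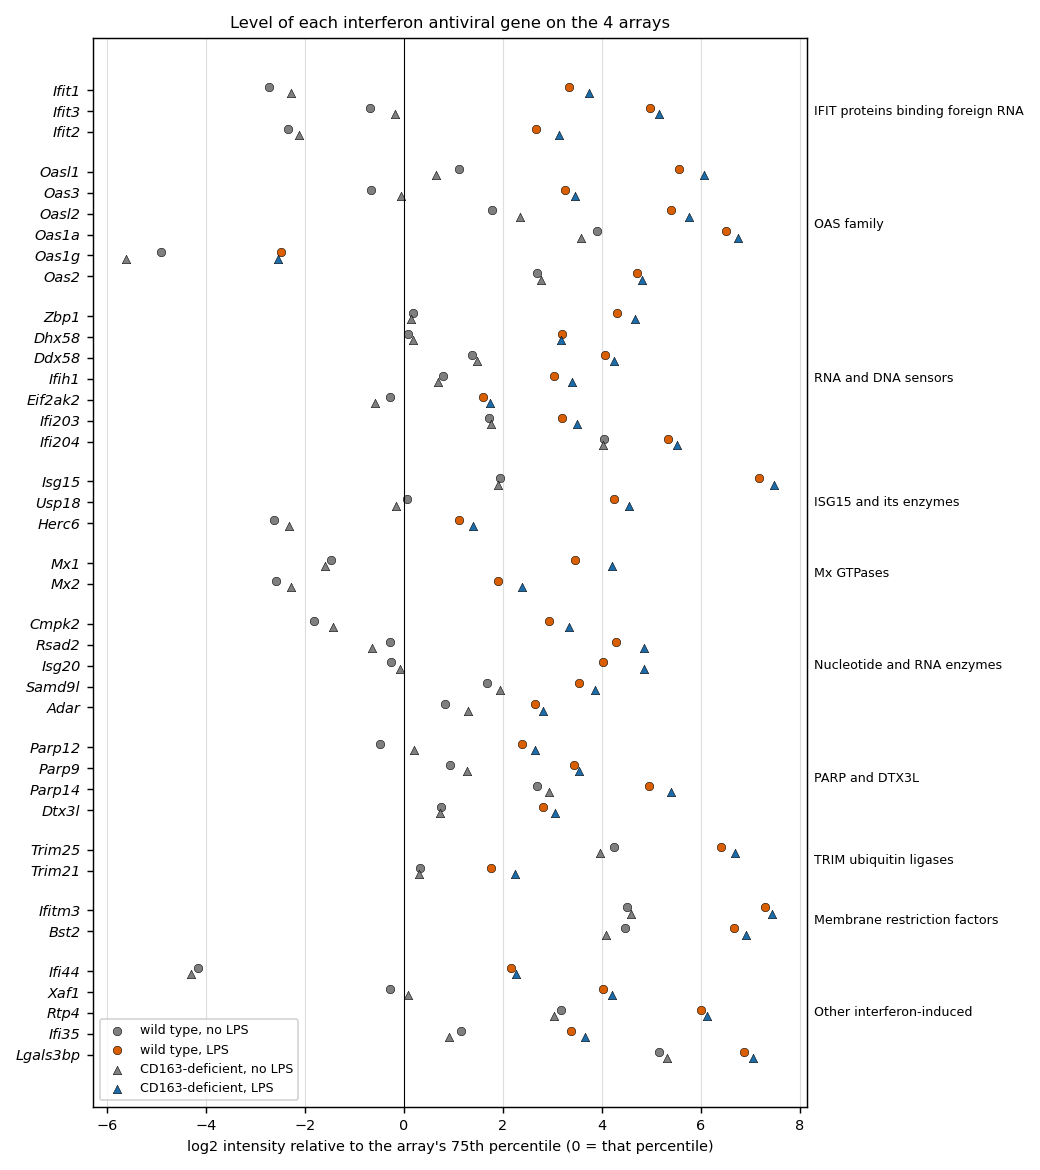
Level of each of the 39 genes on the 4 arrays (log2 intensity relative to the array's 75th percentile), grouped by role, with circles for wild type and triangles for CD163-deficient cells and grey for no LPS. Coloured LPS symbols lie to the right of the grey ones in all 39 rows. At this setting Ifi44 (6.31 in wild type) has the widest gap and Ifi204 (1.29) the narrowest, an order that changes with normexp correction of the background and with the probe.

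The listed gene that ran against the rest was Ifi27, a small membrane protein named for its induction by interferon. The array names it Ifi27l1, and its accession belongs to Ifi27 in RefSeq, so it fell outside the symbol rule and outside the 39. Its level was 5.27 without and 4.16 with LPS in wild type, and 4.98 and 4.00 in CD163-deficient cells. Its LPS differences were thus -1.11 and -0.98 on the log2 scale, where those of the 39 were all above 0. Its neighbour in the same family, Ifi27l2a, stood at 4.17 and 5.96 in wild type and at 3.84 and 6.04 in CD163-deficient cells, higher with LPS by 1.79 and 2.20. Another relative, Ifi27l2b, was dimmer and had a pair of probes. Its brighter probe was at -2.38 without and -2.69 with LPS in wild type, and at -2.81 and -2.55 in CD163-deficient cells. The LPS differences of Ifi27l2b were thus -0.31 and 0.26 by that probe, and -0.07 and 0.08 by the other. These genes were looked up after their values were in view.

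The IFIT family, in which IFIT1 binds viral RNA that lacks the host's cap methylation, had the largest differences of any role group. Its medians were 5.66 in wild-type cells and 5.33 in CD163-deficient ones. Ifit1, the founding member, was at -2.73 without and 3.34 with LPS in wild type, a processed intensity of 137 against 13373. In CD163-deficient cells Ifit1 was at -2.27 and 3.74. Ifit1 thus moved from below the array's 75th percentile to far above it in both genotypes, by 67.1-fold and 64.6-fold. Ifit2, which binds AU-rich RNA, had the smallest difference of the group and still stood at -2.34 and 2.67 in wild type and at -2.11 and 3.13 in CD163-deficient cells. Ifit3 was at -0.68 and 4.98 in wild type and at -0.17 and 5.15 in CD163-deficient cells. Mouse cells carry close relatives of these genes, and the files do not say how far a probe also reads a relative.

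The Mx GTPases, which assemble into rings around incoming viral nucleocapsids, had a median LPS difference of 4.70 in wild-type cells and 5.24 in CD163-deficient ones. Mx1 was at -1.48 without and 3.45 with LPS in wild type, and at -1.60 and 4.22 in CD163-deficient cells. Mx2 was at -2.58 and 1.90 in wild type and at -2.27 and 2.39 in CD163-deficient cells. C57BL/6 mice are known to carry a defective Mx1 allele whose protein is not made, and the array reads its transcript only. The Mx1 transcript was 30.4-fold higher with LPS in wild type and 56.2-fold higher in CD163-deficient cells.

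ISG15 is a ubiquitin-like protein attached to other proteins during the interferon response, and USP18 and HERC6 are the enzymes that remove and attach it in mice. Isg15 had the largest difference of the group in wild type, from 1.95 without to 7.18 with LPS, and from 1.91 to 7.48 in CD163-deficient cells. Its probe shares 16 bases with a probe of 1 other gene, Gm9706. Herc6 had the smallest, from -2.62 to 1.11 in wild type and from -2.31 to 1.40 in CD163-deficient cells. Usp18, which also blocks the interferon receptor as a brake, lay between them with differences of 4.19 and 4.69.

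Enzymes of nucleotides and RNA split into strong and weak members. Cmpk2, a mitochondrial kinase of nucleotides that sits beside Rsad2 in the genome, was at -1.81 without and 2.92 with LPS in wild type and at -1.42 and 3.33 in CD163-deficient cells. Rsad2 encodes viperin, which makes a chain-terminating nucleotide, and differed by 4.55 and 5.49. Isg20, an exonuclease of RNA, differed by 4.29 and 4.92. Samd9l, a restriction factor of poxviruses, was far below these at 1.86 and 1.92. Adar, which edits adenosine to inosine in double-stranded RNA and keeps the cell's own RNA from being sensed, had the smallest difference of the group, from 0.83 to 2.64 in wild type and from 1.29 to 2.81 in CD163-deficient cells.

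The OAS family makes the messenger that activates RNase L, and its member Oasl1 is known instead for holding back translation of IRF7. Oasl1 had the largest wild-type difference of the family, from 1.11 without to 5.57 with LPS, and went from 0.65 to 6.07 in CD163-deficient cells. Oas2 had the smallest, from 2.69 to 4.71 in wild type and from 2.76 to 4.81 in CD163-deficient cells. Between these were Oas3 at 3.92 and 3.52, Oasl2 at 3.62 and 3.41, Oas1a at 2.60 and 3.17 and Oas1g at 2.42 and 3.08. Oas1g was dim, with intensities of 25.6 to 238 on the 4 arrays, its differences were 1.08 and 1.70 with normexp correction, and its close similarity to other Oas1 genes makes its probe less certain.

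RNA and DNA sensors were higher by smaller amounts than those groups, with medians of 2.25 in wild-type cells and 2.70 in CD163-deficient ones. Zbp1, a sensor of Z-form nucleic acid that starts necroptosis, led them, from 0.18 without to 4.32 with LPS in wild type and from 0.15 to 4.67 in CD163-deficient cells. The RIG-I-like receptors, which detect viral RNA in the cytosol, followed: Dhx58 (LGP2) differed by 3.11 and 2.99, Ddx58 (RIG-I) by 2.70 and 2.76 and Ifih1 (MDA5) by 2.25 and 2.70. Eif2ak2, the kinase PKR that halts translation on double-stranded RNA, differed by 1.89 and 2.32. Ifi204, a DNA-binding protein of the p200 family, had the smallest wild-type difference of all 39 by brightest probe at the main setting, from 4.05 to 5.34. It went from 4.03 to 5.52 in CD163-deficient cells. The other Ifi204 probe differed by 1.85 and 2.31, so this rank depends on the probe. Ifi203, a relative of Ifi204, differed by 1.48 and 1.74.

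PARP9, PARP12 and PARP14 belong to the ADP-ribosyltransferase family, and DTX3L is the ubiquitin ligase that pairs with PARP9. Parp12 had the largest wild-type difference of these, from -0.49 without to 2.40 with LPS, and went from 0.21 to 2.65 in CD163-deficient cells. Dtx3l had the smallest, from 0.74 to 2.81 in wild type and from 0.72 to 3.06 in CD163-deficient cells. Parp9 differed by 2.51 and 2.28, and Parp14 by 2.26 and 2.46, so the group spanned less than 1 log2 unit in each genotype.

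TRIM25, which ubiquitinates RIG-I, and TRIM21, which captures antibody-coated virus in the cytosol, are ubiquitin ligases. Trim21 was at 0.32 without and 1.75 with LPS in wild type and at 0.31 and 2.25 in CD163-deficient cells. Trim25 was at 4.24 and 6.41 in wild type and at 3.96 and 6.69 in CD163-deficient cells by its brightest probe. That probe ends in a dinucleotide repeat, printed here because it bears on the value, and it shares 16 bases with probes of 77 other genes.
Trim25 probe, last 30 bases: gtgtgtgtgtgtgtgtgtgtgtgtgtgtgt

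The other Trim25 probe, free of the repeat, differed by 1.10 in wild-type cells and 1.32 in CD163-deficient ones, in place of 2.17 and 2.72. Both probes were higher with LPS in both genotypes, by amounts that differ by over 2-fold.

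Membrane restriction factors were bright before LPS and brighter with it. Ifitm3, which blocks fusion of virus with endosomes, was at 4.50 without and 7.31 with LPS in wild type and at 4.58 and 7.45 in CD163-deficient cells. It alone among the members was printed in 10 spots, and its standard deviation between spots was 0.08 to 0.11 on the 4 arrays. Bst2, or tetherin, holds budding virions at the cell surface and was at 4.46 and 6.68 in wild type and at 4.08 and 6.92 in CD163-deficient cells.

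Among the remaining interferon-induced genes, Ifi44, a cytoplasmic protein of the interferon response, had the largest wild-type difference of all 39 members at the main setting. It was at -4.16 without and 2.16 with LPS in wild type and at -4.31 and 2.26 in CD163-deficient cells, a 79.6-fold and a 94.9-fold difference. With normexp correction of the background, an alternative way of treating dim probes, the differences were 5.07 and 5.60 in place of 6.31 and 6.57, and at that setting Ifit3 was the largest in wild type at 5.57 and Ifit1 in CD163-deficient cells at 5.71. Xaf1, a partner of the apoptosis inhibitor XIAP, differed by 4.31 and 4.12. Rtp4, a chaperone of receptors at the cell surface, differed by 2.84 and 3.10, and Ifi35, a leucine zipper protein, by 2.22 and 2.76. Lgals3bp, a secreted galectin ligand, had the smallest difference, from 5.15 to 6.88 in wild type and from 5.32 to 7.06 in CD163-deficient cells.

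**Figure D3:**
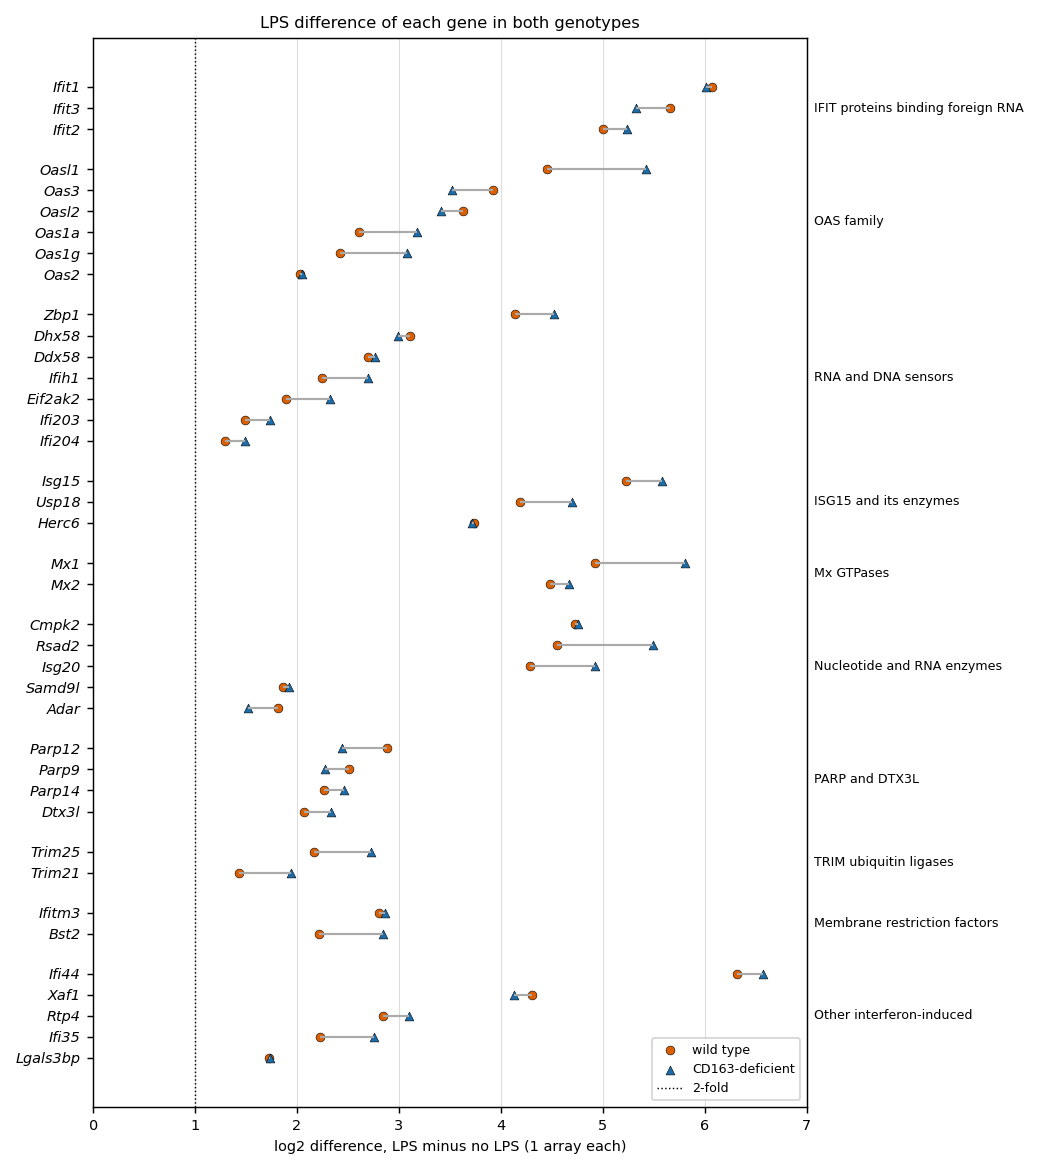
Log2 difference with LPS minus without LPS for each of the 39 genes, with circles for wild type, triangles for CD163-deficient cells and a dotted line at 2-fold. All symbols lie above 2-fold, from 1.29 to 6.31 in wild type and from 1.49 to 6.57 in CD163-deficient cells, and the longest bars, where CD163-deficient exceeds wild type, are those of Oasl1, Rsad2 and Mx1.

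Second probes bear on how firmly single values can be read. There were 21 further probes for 18 of the genes, and 0 of 21 had the opposite sign to the brightest probe for LPS in either genotype. Gaps of over 2-fold occurred for 7 of 21 probes in wild type and 5 of 21 in CD163-deficient cells. Xaf1 was the widest, at 1.40 by its other probe against 4.31 in wild type and at 1.72 against 4.12 in CD163-deficient cells. Parp9 read 1.12 against 2.51 in wild type and 0.57 against 2.28 in CD163-deficient cells, where its other probe was under 2-fold. Zbp1 had larger differences by its other probe, 5.46 and 5.62. A dim second Ifih1 probe gave 3.90 in wild type, a dim second Oas1g probe gave 1.43 in CD163-deficient cells, and a pair of further Ifi203 probes gave 2.49 and 2.58 in wild type.

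Genes that lead to and from interferon were taken from a list of 38 ligands, receptors, kinases, factors, adaptors and inhibitors. With LPS, 14 of 37 compared were at least 2-fold higher and 1 lower in wild type. Of all compared genes, 6.44% were higher and 5.09% lower by that much. In CD163-deficient cells 11 of 38 were higher and 0 lower, beside 7.24% of all compared genes higher and 5.5% lower. With normexp correction 11 and 8 were higher, and 1 was lower in each genotype. Ifnb1, interferon beta, was dim throughout, at -5.50 without and -4.44 with LPS in wild type and at -5.90 and -4.80 in CD163-deficient cells, a difference of 1.06 and 1.10 after 1 day that fell to 0.04 and 0.25 with normexp correction, so its 2-fold size depends on how the background is treated. The interferon alpha genes Ifna1, Ifna2, Ifna4 and Ifna5 differed by -0.04 to 0.16 in wild type and by 0.01 to 0.27 in CD163-deficient cells. Ifnk, another type I interferon, was dim and differed by 1.11 in wild-type cells, or 0.18 with normexp correction, and by -0.32 in CD163-deficient ones. Ifne was well above background only on the array of CD163-deficient cells with LPS.

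Ifng, type II interferon, was at -4.59 without and -1.12 with LPS in wild type and at -5.11 and 0.02 in CD163-deficient cells. Its LPS difference was 3.47 in wild-type cells and 5.13 in CD163-deficient ones, or 2.14 and 3.69 with normexp correction, and many of the antiviral genes also respond to this interferon. With LPS, Ifng was 1.14 higher in CD163-deficient cells, and its part in the antiviral levels was not tested. The receptor chain Ifnar1 was at 2.36 and 2.33 in wild type and at 2.13 and 2.52 in CD163-deficient cells by its brightest probe, while its other probes differed by 0.31 and 0.74 in wild type. The second chain, Ifnar2, differed by 1.53 and 1.31. Ifngr1, a chain of the type II receptor, was the gene of the list that was lower by 2-fold, with differences of -1.73 in wild-type cells and -0.90 in CD163-deficient ones.

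Of the signalling parts, Stat2 was at 2.06 without and 4.39 with LPS in wild type and at 1.85 and 4.73 in CD163-deficient cells. Irf9, its partner, differed by 1.03 and 1.04, which quantile normalization took below 2-fold at 0.96 and 0.84, and the kinase Jak2 by 2.63 and 3.00. Irf7, the factor that amplifies interferon alpha, had the largest difference of the list in wild type, from -0.36 to 4.28, and went from -0.40 to 4.64 in CD163-deficient cells. Irf1 differed by 1.46 and 1.95.

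Some kinases and adaptors between Toll-like receptor 4 and interferon were 2-fold higher on the wild-type arrays and less than that on the CD163-deficient ones, a gap that was not tested. Ticam2, the adaptor TRAM, differed by 1.44 and 0.77, but its wild-type value was 0.67 with normexp correction and so below 2-fold. Next were the kinases of IRF3, Tbk1 and Ikbke, which differed by 1.53 and 0.67 and by 1.44 and 0.89. Without LPS, CD163-deficient cells were higher than wild type by 0.71 for Ticam2, 0.94 for Tbk1 and 0.69 for Ikbke. With LPS they were higher by 0.04, 0.08 and 0.14, so the gap lay mainly on the arrays without LPS. The feedback inhibitors Socs1 and Socs3, which switch off receptor kinases, differed by 4.42 and 4.52 in wild type and by 4.71 and 5.24 in CD163-deficient cells.

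Markers of other cells were measured beside the LPS differences. A summed level is the log2 of the markers' levels added on the linear scale, so the brightest marker weighs most. Neutrophil markers were higher with LPS, 4 of 4 in wild type and 3 of 4 in CD163-deficient cells, with a summed level of 1.62 without and 4.19 with LPS in wild type and of 1.39 and 4.37 in CD163-deficient cells. S100a8 made up most of this sum, at 1.51 and 3.98 in wild type and at 1.22 and 4.17 in CD163-deficient cells. Camp and Ly6g were dimmer and also higher with LPS, whereas S100a9 was at -4.73 to -4.31 on all 4 arrays. Markers of plasmacytoid dendritic cells, potent makers of interferon alpha, had summed levels of 5.78 to 5.95, nearly all of it Siglech at 5.67 to 5.90, while Ccr9 was at -2.85 to -2.19. Of these markers 3 of 4 were higher with LPS in each genotype, and Cox6a2 by more than 2-fold, from -0.14 to 1.03 in wild type and from -0.28 to 0.93 in CD163-deficient cells. Mesothelial markers were lower with LPS, with 0 of 5 higher in either genotype and a summed level of 0.97 and -0.49 in wild type and 0.52 and -0.78 in CD163-deficient cells. Summed levels on the 4 arrays were 1.96 to 2.09 for T cell markers, 0.09 to 0.26 for B cell markers, -1.18 to -0.74 for NK cell markers and -2.39 to -1.86 for mast cell markers. Cd3g, Ncr1, Klrk1, Cma1 and Ms4a2 were not well above background on at least 2 of the arrays. The part of these cells in the LPS differences was not tested.

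Without LPS the genotypes showed no common direction for the antiviral genes. In CD163-deficient cells 21 members were higher and 18 lower than in wild type, where 42.1% of all compared genes were higher, and 0 of 39 were 2-fold apart in either direction, where 1.3% of all compared genes were higher and 1.15% lower by that much. Among genes at level 0 or more on both arrays, 34.8% were higher. The members had a median difference of 0.08 and quartiles of -0.14 and 0.31, beside a median of -0.06 over everything compared. Beyond the 0.18 of the spot yardstick, 15 members were higher and 9 were lower at the main setting. Among all compared genes 23.4% were higher and 33.6% lower by that much, and among genes at level 0 or more on both arrays 14.8% and 37.3%. Parp12, Oas3 and Oasl2 were furthest up, by 0.69, 0.61 and 0.57, for which Parp12 had levels of -0.49 in wild-type cells and 0.21 in CD163-deficient ones, Oas3 of -0.67 and -0.06, and Oasl2 of 1.78 and 2.35.

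Oas1g, Oasl1 and Bst2 were furthest down without LPS. Oas1g was at -4.90 in wild-type cells and -5.62 in CD163-deficient ones, a difference of -0.72 that its dim other probe did not share, at 0.22. Oasl1 was at 1.11 and 0.65, a difference of -0.47, and Bst2 at 4.46 and 4.08, a difference of -0.38. The OAS family was split, with 3 of 6 members higher, while the IFIT genes were 3 of 3 higher, by 0.22 to 0.51. Over second probes, 8 of 21 had the opposite sign to the brightest probe in this comparison, so the signs of small differences here depend on the probe. Beside Oas1g, the dim second Ifih1 probe gave 1.40 where the brightest gave -0.10, and Xaf1 read -0.08 against 0.37. Oas1a read 0.03 against -0.33, Isg15 0.08 against -0.046 and Zbp1 0.10 against -0.031. A further Dtx3l probe gave 0.15 against -0.021, and a further Ifi203 probe -0.15 against 0.03.

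With LPS, CD163-deficient cells were higher for most of the set by small amounts. Of the 39 members 37 were higher than in wild type, where 50.9% of all compared genes were higher, and 64.5% of the 8004 genes at level 0 or more on both arrays were. The median member differed by 0.28, a quartile range of 0.18 to 0.38, against a median of 0.05 and quartiles of -0.04 and 0.15 for those 8004 genes. No member was 2-fold apart: 0 of 39 were higher and 0 lower by that much, where 1.24% and 1.09% of all compared genes were. At the main setting, a difference above 0.18 was held by 28 members and one below -0.18 by 0. Of all compared genes 18.5% and 22.3% were that far up and down, and of the 8004 genes 19.4% and 8.21%. Which members passed 0.18 depended on the setting. At their lowest over the settings Isg15 fell to 0.15, Bst2 to 0.11 and Oas1a to 0.11. Ifit3 and Ddx58, below the yardstick at the main setting, reached 0.19 at their highest. With quantile normalization the median member differed by 0.17, and in the authors' deposited value table by 0.18, with 35 and 36 members higher.

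**Figure D4:**
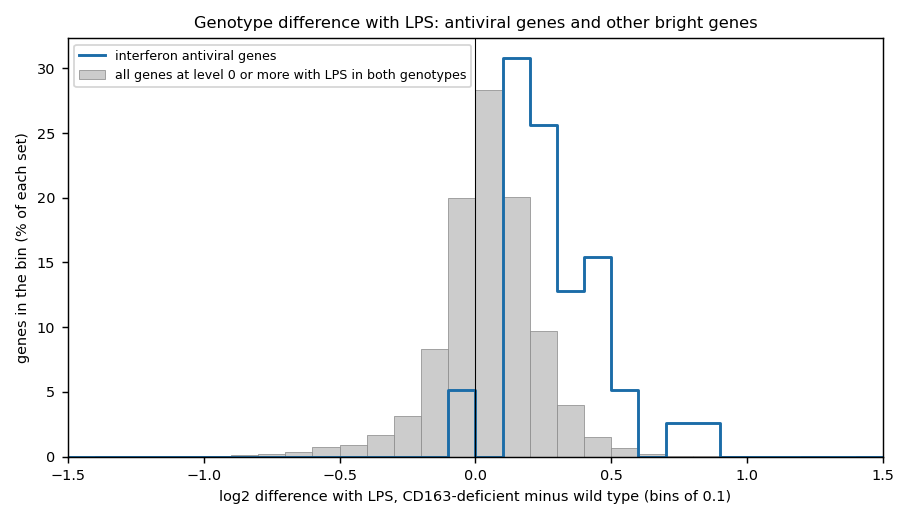
Share of genes (%) in bins of 0.1 of the log2 difference with LPS, CD163-deficient minus wild type, for the 39 antiviral genes (blue line) and for all genes at level 0 or more with LPS in both genotypes (grey bars). The antiviral genes have a median of 0.28 and the grey set a median of 0.05.

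Isg20 had the largest of these differences, at 4.02 in wild-type cells and 4.85 in CD163-deficient ones with LPS, 1.78-fold apart. Mx1 followed at 3.45 and 4.22, 1.70-fold apart. Rsad2 was at 4.28 and 4.85, and Oasl1 at 5.57 and 6.07. Trim21, at 1.75 and 2.25, completed the 5 largest, with a difference of 0.49 that lay next to the 0.49 of Mx2. Isg20 and Rsad2 both belong to the nucleotide and RNA enzymes. The other leaders came from separate role groups: a GTPase, an OAS-like protein and a ubiquitin ligase.

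Under LPS the CD163-deficient array was the lower one for Oas1g and Dhx58 only, with differences of -0.063 and -0.025, both below the spot yardstick, and each changed sign under at least 1 other way of processing, as did Ifitm3 and Oas2 among the higher genes. Oas1g was at -2.48 in wild-type cells and -2.54 in CD163-deficient ones, and Dhx58 at 3.20 and 3.18. By role, the medians were 0.63 for the Mx GTPases, 0.41 for the IFIT genes, 0.41 for the nucleotide and RNA enzymes and 0.39 for the TRIM ligases. ISG15 and its enzymes had 0.29, the PARP and DTX3L group 0.25 and the OAS family 0.22. Membrane factors had 0.19, and the sensors and the remaining genes 0.18 each. The Mx, TRIM and membrane medians rest on 2 genes each. Trim25 read 0.28 by its repeat probe and 0.11 by the other. Among second probes, 1 of 21 had the opposite sign, that of Parp9 at -0.09 against 0.11, and 0 of 21 were over 2-fold from the brightest.

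**Figure D5:**
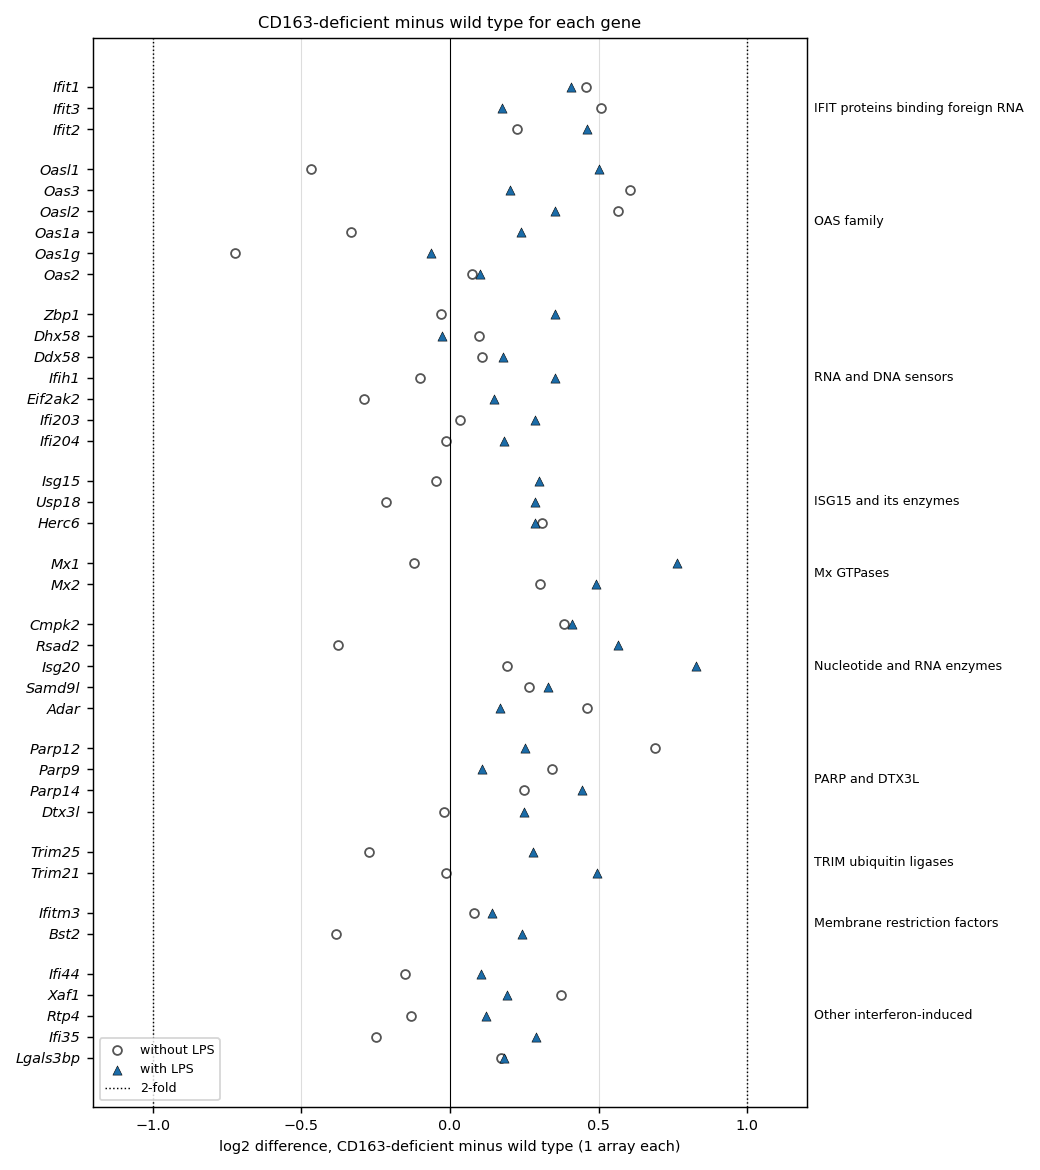
Log2 difference, CD163-deficient minus wild type, for each of the 39 genes without LPS (open circles) and with LPS (triangles), with dotted lines at 2-fold. Circles lie on both sides of 0, from -0.72 to 0.69, while 37 of 39 triangles lie right of 0, up to 0.83 for Isg20.

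Put together over all 4 arrays, the LPS difference was larger in CD163-deficient cells for 29 of 39 members, where 59.8% of all compared genes were so, with a median of 0.24 against 0.08. Oasl1 had the largest excess at 0.97, then Rsad2 at 0.94 and Mx1 at 0.88, and Parp12 the largest shortfall at -0.44. With quantile normalization the median excess over the members was 0.11.

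The genotype difference had opposite signs without and with LPS for 18 members, where 50.8% of all genes detected on all 4 arrays did, and 56.7% of those at level 0 or more on all 4. Of the 18 genes, 17 were lower without and higher with LPS in CD163-deficient cells, an order held by 31.8% and 43.3% of those genes. Both values were beyond the spot yardstick for 7 members, beside 5.46% and 6.16% of those genes. The count of 18 sign changes was thus near the share in all genes. The 7 members made up a larger share of the set than 5.46% or 6.16%. That excess was not tested, and it rests on single arrays and on a size set after values were seen. Of the 7, Oas1a showed no change of sign by its other probe, and Trim25 was read from a repeat probe.

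Other interferon-induced families were also higher in CD163-deficient cells with LPS, and how their medians compare with the 0.28 of the antiviral genes was not tested. The guanylate-binding proteins, GTPases that attack vacuoles of pathogens, were 8 of 8 higher in CD163-deficient cells with LPS, with a median of 0.50. Immunity-related GTPases, their partners, were 8 of 8 higher with a median of 0.53, and MHC class I and peptide loading genes 12 of 12 with a median of 0.29. Without LPS the medians were 0.45, 0.30 and 0.09, with 8 of 8, 8 of 8 and 8 of 12 genes higher, beside 0.08 for the antiviral genes.

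Other measures also differed between the genotypes on the LPS arrays. Fibroblast markers were 4 of 4 lower in CD163-deficient cells, with a summed level of 6.05 in wild-type cells and 5.40 in CD163-deficient ones, and Col1a1 at 4.54 and 3.84. The summed level of macrophage markers was 9.44 and 9.62, with 4 of 6 higher, and that of neutrophil markers was 4.19 and 4.37, with 3 of 4 higher. Of the large peritoneal macrophage markers 2 of 4 were higher, with a summed level of 7.23 and 7.36. Gata6, the factor of these cells, was at -1.37 and -2.04, and Timd4 at 1.58 and 1.18. Icam2 was at 3.94 and 4.06, and Adgre1 at 7.04 and 7.18. The part of these cell mixtures in the genotype differences was not tested, and with 1 array a group, genotype and culture cannot be told apart.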

How the data were processed

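Total RNA was amplified, labelled with Cy3 and hybridised to 1-colour Agilent arrays, per the labels' protocols. Per the file headers, the authors' scanner software (Feature Extraction 10.7.1.1; 9.5.1.1 in the submitters' processing notes) gave background-corrected processed intensity values per spot, with annotation on mm9. The authors' deposited value table holds intensity values on a linear scale that differ from a quantile normalization of the probe means by a median of 0.00013 log2.

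Here log2 intensity minus each array's 75th percentile over non-control spots was the level. Spots of a probe were averaged without flagged outliers where others remained. Detection needed 50% or more of a probe's spots to be well above background, and genes detected on either array of a pair were compared. For 2-fold counts over all genes, an undetected side was set to the higher of its own level and the lowest detected level there; this bound was added after first counts were seen and touches no member. Medians used measured values. The 0.18 log2 yardstick from spots was also set after values were seen. Members and lists were chosen with earlier results of these data known. Members given with levels on every array were those with the largest and smallest wild-type LPS difference of each role. For the 5 largest genotype differences each way with LPS and 3 each way without it, the levels compared were given. Pathway genes were listed when 2-fold apart for LPS in wild type or central to the pathway. Of these, Ifnb1, Ifng, Ifnar1, Stat2 and Irf7 were given with levels and the others by their differences. From the pathway list, 1 gene is not reported here and was left out of its counts, and of the promoter motifs searched only the response element core is reported. Second probes were given where signs or sizes (2-fold) disagreed.

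The settings tried beside this were normexp correction of the background (R 4.3.3 with limma 3.58.1, offset 50), quantile normalization, the median of detected probes as scale, the deposited table, the mean of all probes, detection on both arrays, no detection filter and, chosen after seeing the data, a probe outside repeats. The comparison step was checked on simulated data. Python 3.11.15, pandas 2.3.3 and numpy 2.4.6 were used. There is no count depth on arrays, and their number limits the precision. RefSeq gave the promoter windows; 11 listed genes had none.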

Additional observations from a re-analysis of the deposited data

Results flagged for a closer look

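Genotype differences of opposite sign without and with LPS were found for 18 of the 39 genes, where 50.8% of all genes detected on all 4 arrays and 56.7% of those at level 0 or more on all 4 had them. Each group is 1 array, so the change of sign was not tested, and the values below are CD163-deficient minus wild type on the log2 scale, without LPS first and with LPS second. In 7 genes both values exceeded 0.18, which is 1 standard deviation of a difference between spots. These were -0.47 and 0.50 for Oasl1, -0.38 and 0.57 for Rsad2, -0.27 and 0.28 for Trim25 and -0.25 and 0.29 for Ifi35. The rest of the 7 had -0.38 and 0.24 for Bst2, -0.33 and 0.24 for Oas1a and -0.22 and 0.29 for Usp18. All 7 were lower without LPS and higher with LPS in CD163-deficient cells, which 5.46% and 6.16% of those genes were by that size. The other Oas1a probe gave 0.03 and 0.28, with no change of sign.

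A further 10 genes had the same order of signs with at least 1 value below that size. The values were -0.29 and 0.15 for Eif2ak2, -0.13 and 0.12 for Rtp4, -0.12 and 0.76 for Mx1, -0.15 and 0.10 for Ifi44 and -0.10 and 0.35 for Ifih1. The others had -0.046 and 0.30 for Isg15, -0.031 and 0.35 for Zbp1, -0.021 and 0.25 for Dtx3l, -0.014 and 0.49 for Trim21 and -0.013 and 0.18 for Ifi204. Dhx58 alone had the reverse order, at 0.097 and -0.025. For Ifih1, Isg15, Zbp1 and Ifi204 the sign without LPS changed under another way of processing, and for Dhx58 the sign with LPS did. Other probes of Ifih1 (1.40 and 0.19), Isg15 (0.08 and 0.32) and Zbp1 (0.10 and 0.26) showed no change of sign, nor did 1 of the other Dtx3l probes (0.15 and 0.27). The brightest Trim25 probe holds a repeat, and its other probe gave -0.10 and 0.11.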

How the results depend on the processing

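The count of 39 of 39 members at least 2-fold higher with LPS held in both genotypes under the 8 alternatives, as did 0 of 39 at 2-fold between the genotypes. The median LPS difference in CD163-deficient cells was 2.88 with quantile normalization, against 3.08, and the cause was not tested. The other medians moved by less than 0.18. The median genotype difference with LPS ran from 0.17 (quantile) to 0.29 (median scale), with 0.23 under normexp, and the number of members higher from 35 to 39. Signs were the same in all settings for 39 of 39 genes for LPS in each genotype, 35 of 39 for the genotype with LPS and 35 of 39 without it. Normexp moved the median of all genes for LPS in wild type to -0.18 and for the genotype without LPS to -0.17, with 31.2% and 25.6% of all genes higher, against 50.5% and 42.1%; for the genotype with LPS it gave 62.3% against 50.9%. No paired analysis was possible because each group has 1 array and the groups share no replicate numbers in the labels. With 1 array a group, no replicate could be left out.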
